A study of Mus musculus with 24 samples.

Results

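The comparison described here is the first 3 h of actinomycin D in Nat10+/- KO2 cells: the 2 libraries titled KO2 at 3 h against the 2 titled KO2 at 0 h, 4 of the 24 libraries of the series. The cells were 32D, a mouse line that depends on interleukin 3 (IL-3) and that the labels call bone marrow lymphoblastocytes. Groups were KO2 (Nat10+/-, described as deficient in Nat10), KO1 (Nat10+/-, likewise) and wild type (WT), each after 0, 3, 6 or 9 h with actinomycin D, given at 0.05 µg/ml, which makes 12 groups of 2 libraries. All of them grew with 10% fetal bovine serum and IL-3 at 10 ng/ml. Polyadenylated RNA was sequenced, and the same amount of ERCC spike-in RNA, a set of synthetic transcripts, went into each sample of total RNA. The labels state neither how the Nat10 allele was changed, whether KO2 came from a single cell, nor what the 0 h cells received. They call the 2 libraries of a group biological replicates without saying that separate cultures were grown, so p-values measure the spread between those libraries, which may be technical. The series states its purpose as the measurement of mRNA lifetimes in relation to NAT10 and acetylated cytidine.

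Actinomycin D binds DNA and blocks RNA polymerases, ribosomal RNA synthesis being the most sensitive. After transcription is blocked, an mRNA that is degraded quickly loses its share of the mRNA pool and a long-lived mRNA gains share, even when neither is made any longer. The abundance given below is in counts-per-million values (CPM) of gene counts, after scaling by edgeR's trimmed mean of M-values (TMM), so "rose" and "fell" mean a larger or smaller share of polyadenylated RNA at 3 h than at 0 h. NAT10 is the enzyme that acetylates cytidine in 18S ribosomal RNA, tRNA and, as reported, mRNA.

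The 24 libraries held 15361601 to 17338939 gene counts, and the 4 KO2 libraries were within that range. Nat10 itself (ENSMUSG00000027185, chromosome 2, 103551601 to 103591615 in GRCm39) was at 82.9 and 83.6 CPM in KO2 at 3 h, against 99.2 and 95.1 CPM in KO2 at 0 h. WT had 111 and 113 CPM and KO1 97.7 and 108 CPM at 0 h. The transcript was therefore present in every library of KO2, and since the labels name no altered part of the gene, a count over all its exons does not test the genotype. The change of Nat10 in KO2 was -0.22 ± 0.051 on the log2 scale (SE; adjusted p = 5.5e-05, edgeR's quasi-likelihood test with Benjamini-Hochberg adjustment), and its difference from the change in WT was 0.12 ± 0.071 (adjusted p = 0.21, edgeR). Of 20 lymphoid markers, 12 had no count in any of the 4 KO2 libraries, among them Cd3e and Ebf1. The summed level of the lymphoid list was 33.1 and 34.0 CPM in KO2 at 3 h, against 10.5 and 9.03 CPM at 0 h. Of the 6 lymphoid markers with enough counts to test, 5 rose and 0 fell, among them Cd79a, with 182 and 206 counts at 3 h and 3 and 1 at 0 h. The count filter kept a gene with enough counts in any group. A marker nearly silent at 0 h could thus be tested but could hardly fall, so these counts do not weigh rises against falls. Csf2rb, the shared beta chain of the IL-3 receptor family, was at 248 and 259 CPM at 3 h and 401 and 413 CPM at 0 h.

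Most expressed genes changed their share within 3 h. Of 16167 genes tested, 11459 passed an adjusted p of 0.05 (70.9%; edgeR's quasi-likelihood test fitted to all 24 libraries, Benjamini-Hochberg adjustment over all genes). Of these, 6081 rose (37.6% of genes tested) and 5378 fell (33.3%). A rise of at least 2-fold was called for 2654 genes (16.4%) and a fall of at least 2-fold for 2462 (15.2%). The 4 libraries were separated by time, with both libraries of one time above both of the other, for 13424 genes (83.0%). The median change was 0.10 on the log2 scale, with quartiles of -0.62 and 0.79. Many of the called changes were small: 3694 called genes changed by less than 1.5-fold. Genes of low level contributed much of the rising tail, since 1093 genes rose and 1628 fell by at least 2-fold when only genes averaging 5 CPM or more over the 24 libraries were kept.

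The change in the pool can also be read from the share of all counts. Genes that fell by at least 2-fold took 6.03% and 6.01% of gene counts in the KO2 libraries at 3 h, against 19.2% and 19.2% at 0 h. Genes that rose by at least 2-fold took 8.84% and 8.84% at 3 h, against 3.24% and 3.25% at 0 h. The 100 most abundant genes of each library took 22.2% and 22.1% at 3 h, against 17.013% and 16.998% at 0 h.

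**Figure D1:**
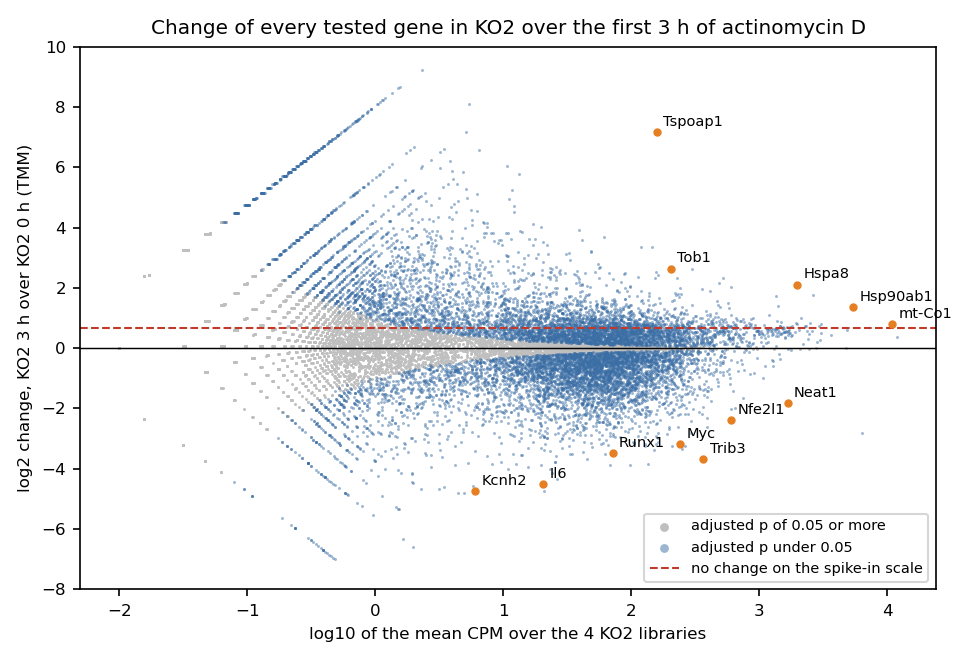
Each point is 1 of the 16167 tested genes, placed by its mean level over the 4 KO2 libraries (log10 CPM, x axis) and its log2 change in KO2 at 3 h over 0 h (y axis), with called genes in blue and labelled genes in orange; the slanted rows at the left are genes with few or no counts at 1 of the times. The dashed line marks the change that equals no change on the spike-in scale, and genes between it and 0 rose in share while falling against the spike-in.

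The spike-in gave a second scale for KO2. Spike-in counts were 8183 and 8486 in the 3 h libraries, against 5623 and 5339 in the 0 h libraries. As CPM of gene counts they were 532.7 and 506.4 at 3 h, against 342.0 and 323.7 at 0 h, a ratio of the means of 1.56. All 20 spike-in transcripts with a mean of at least 10 counts were higher at 3 h per gene count, with a median log2 ratio of 0.70 and quartiles of 0.60 and 0.82. The same ratio was 1.09 in KO1 and 1.33 in WT, where the libraries held on average only 9.59 spike-in CPM at 3 h and 7.19 at 0 h. At 0 h the mean was 332.9 in KO2 and 240.4 in KO1, so shares differed between genotypes although the stated amount was the same. In KO1 the spike-in was at 353.0 and 342.5 CPM at 6 h and at 258.3 and 257.5 CPM at 9 h. The cause of these differences was not tested. Because the spike-in was added to total RNA, it measures polyadenylated RNA per amount of total RNA and not per cell. It therefore gives no reading of cell number or of RNA per cell. With spike-in totals as the scale, the median change over the same 13651 genes moved by -0.68 on the log2 scale. On that scale 1913 genes rose (14%) and 8696 fell (63.7%). All 1913 had also risen with TMM, while 1498 genes rose with TMM and fell against the spike-in. Another 5238 genes fell on both scales.

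The 12 largest called falls at 5 CPM or more lay between -4.75 and -3.83 log2. Kcnh2, which encodes a voltage-gated potassium channel (ENSMUSG00000038319, chromosome 5, 24524587 to 24556602 in GRCm39), was at 0.343 and 0.502 CPM at 3 h, against 11.7 and 11.5 CPM at 0 h, a 26.8-fold fall (-4.75 ± 0.31 log2, adjusted p = 3.6e-27, edgeR). Il6, the inflammatory cytokine interleukin 6, was at 1.78 and 1.63 CPM at 3 h, against 41.3 and 36.8 CPM at 0 h. Il23a, the specific subunit of interleukin 23, was at 1.85 and 1.88 CPM at 3 h, against 28.7 and 29.7 CPM at 0 h. Both cytokine transcripts were thus nearly lost from the pool, with log2 changes of -4.51 ± 0.16 and -3.96 ± 0.16. Tbc1d31, a gene for a protein with a TBC domain, was at 11.5 and 13.5 CPM at 3 h, against 185 and 182 CPM at 0 h. Kif21b, a kinesin motor, was at 16.5 and 17.9 CPM at 3 h, against 252 and 249 CPM at 0 h. Med13l, a subunit of the Mediator kinase module, was at 8.92 and 8.21 CPM at 3 h, against 127 and 128 CPM at 0 h. These 3 had been well expressed and fell 14.6-fold, 14.5-fold and 14.9-fold. The other large falls were Nupr1, a stress-induced chromatin protein, Arid5b, a DNA-binding regulator, Ffar2, a receptor for short-chain fatty acids, Hdac4, a histone deacetylase, Pde4d, a cyclic AMP phosphodiesterase, and Plch1, a phospholipase C, with log2 changes between -4.34 and -3.83. The choice of these 12 genes required that their libraries did not overlap between the times.

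The 6 most abundant transcripts among those that fell by at least 2-fold were Neat1, Pim1, Cd47, Adgrg1, Ero1l and Nfe2l1. Neat1, the nuclear long noncoding RNA of paraspeckles, was at 739.8 and 732 CPM at 3 h, against 2563 and 2613 CPM at 0 h. Pim1, a kinase induced by IL-3 and STAT5, was at 356 and 367 CPM at 3 h, against 1106 and 1147 CPM at 0 h. Cd47, the surface protein that restrains phagocytosis, was at 261 and 259.6 CPM at 3 h, against 1042 and 1033 CPM at 0 h. The 3 transcripts fell 3.52-fold, 3.11-fold and 3.98-fold, and the 2 libraries of each time lay close together. Nfe2l1, a regulator of proteasome genes, fell 5.23-fold, Ero1l, an oxidase of the endoplasmic reticulum, fell 4.03-fold, and Adgrg1, an adhesion receptor, fell 2.69-fold.

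The largest rises were ranked by fold among genes averaging 5 CPM or more over the 4 KO2 libraries, again without overlap between the times. A gene near 0 at 0 h could pass by its 3 h libraries alone, so this choice favours transcripts barely present before the drug. Tspoap1, which encodes a scaffold protein bound to the mitochondrial protein TSPO (ENSMUSG00000034156, chromosome 11, 87651367 to 87676754 in GRCm39), stood out by its level, at 307 and 321 CPM at 3 h against 1.88 and 2.49 CPM at 0 h. That is a log2 change of 7.16 ± 0.075 (adjusted p = 4.4e-96, edgeR) and 6.49 against the spike-in. Cd79a, a B-cell receptor subunit, was at 12.5 and 12.9 CPM at 3 h, against 0.188 and 0.0623 CPM at 0 h. Gpr132, a G protein-coupled receptor, was at 14.4 and 13.9 CPM at 3 h, against 1.0008 and 0.561 CPM at 0 h. Zfp750, a zinc-finger regulator known from epidermis, was at 23.3 and 19.8 CPM at 3 h, against 0.876 and 0.498 CPM at 0 h. The last of these was higher still later, with a mean of 63.6 CPM at 6 h and 132 CPM at 9 h. Mpig6b, an inhibitory receptor of megakaryocytes, had 329 counts at 3 h and 1 count at 0 h, a ratio per gene count of 337 with an exact 95% interval of 60.1 to 13360.0, which covers counting error only. The remaining largest rises were Tlcd2, Slc5a5, the sodium-iodide symporter, Aoc3, an amine oxidase, Nfe2l3, a transcription factor related to Nfe2l1, Pdzd4, Sh3bp5 and Shd, with log2 changes between 4.18 and 5.77. Counting ignored strand, and 5 of the 12 largest rises (Mpig6b, Aoc3, Zfp750, Pdzd4 and Sh3bp5) overlap a gene on the other strand, as do 5 of the 12 largest falls (Kcnh2, Hdac4, Med13l, Pde4d and Plch1). Reads of the overlapping partners cannot be told apart there.

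The 6 most abundant transcripts among those that rose by at least 2-fold were Hsp90ab1, Hsp90aa1, Tmsb4x, Hspa8, Actg1 and Ccng1. Hsp90ab1, a cytosolic HSP90, was at 7792 and 7818 CPM at 3 h, against 2997 and 3032 CPM at 0 h. Tmsb4x, the actin-binding thymosin beta 4, was at 2851 and 2765 CPM at 3 h, against 1412 and 1386 CPM at 0 h. Actg1, gamma actin, was at 2029.7 and 1997 CPM at 3 h, against 771 and 773 CPM at 0 h. All of these also rose against the spike-in, by 0.70, 0.33 and 0.71 on the log2 scale. Ccng1, a cyclin induced by p53, rose 3.33-fold.

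Short-lived regulators were mixed by family. Of 24 immediate early transcription factors tested, 12 rose and 4 fell, with a median of 0.39 log2 beside 0.10 over all genes; against the spike-in 4 rose and 10 fell. Fos, the AP-1 subunit, was at 56.7 and 59.9 CPM at 3 h, against 8.26 and 6.98 CPM at 0 h. Klf6, a zinc-finger factor, was at 36.6 and 36.7 CPM at 3 h, against 279 and 271 CPM at 0 h. So Fos rose 7.65-fold while Klf6 fell 7.50-fold. Egr3 rose 2.01-fold and Ier5 2.02-fold, whereas Jund and Ier2 fell 2.16-fold and 1.76-fold. Against the spike-in Egr3 did not pass the test (0.33 log2, adjusted p = 0.06, edgeR).

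Among regulators of signalling, falls outnumbered rises in each list. Over all genes tested 37.6% rose and 33.3% fell, so rises in both lists of 15 genes were near that share. Of 14 NF-kB subunits and inhibitors, 2 rose and 11 fell (median -0.46 log2). Nfkbiz, an inducible inhibitor of the IkB family, was at 75.3 and 79.1 CPM at 3 h, against 341 and 335 CPM at 0 h, and the subunit genes Relb and Rel fell 3.98-fold and 3.88-fold. Rela, the main activating subunit, changed by 0.17 log2 with TMM and by -0.50 against the spike-in, so its direction depends on the scale. Of 15 MAP kinase phosphatase and Sprouty feedback genes, 5 rose and 7 fell, led by the Ras inhibitors Spred2 (6.46-fold) and Spred1 (3.75-fold) and the phosphatase Dusp16 (3.62-fold). Among 15 AU-rich element binding proteins, which control mRNA decay, 5 rose and 8 fell. Members of one family moved apart: Zfp36l1 and Zfp36 rose 3.55-fold and 3.31-fold, and Zfp36l2 fell 2.58-fold. The Pumilio gene Pum2 fell 3.05-fold.

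Transcription factors of growth and of blood progenitors lost share. Myc was at 49.1 and 46.3 CPM at 3 h, against 426 and 444 CPM at 0 h, a 9.13-fold fall (-3.19 ± 0.043 log2). Of 11 genes of the Myc and Max network, 3 rose and 7 fell; Mycn fell 3.74-fold and the repressor Mnt 4.23-fold, while the Myc antagonist Mxd1 rose 2.14-fold. Of 27 blood progenitor transcription factors, 20 fell and 5 rose, with a median of -1.42 log2. Runx1, a master regulator of blood stem cells, was at 11.8 and 11.5 CPM at 3 h, against 121 and 141 CPM at 0 h. Fli1, an ETS factor, was at 12.1 and 12.8 CPM at 3 h, against 102 and 98.0 CPM at 0 h. Meis1, a homeobox factor of stem cells, was at 2.68 and 3.39 CPM at 3 h, against 26.1 and 22.2 CPM at 0 h. The 3 falls were 11.2-fold, 8.01-fold and 7.92-fold, and all 3 genes span more than 100 kb. Cebpe, a factor of granulocyte maturation, went the other way, at 107 and 99.9 CPM at 3 h against 24.2 and 23.8 CPM at 0 h, and Hhex rose 1.79-fold with TMM but did not pass the test against the spike-in (0.17 log2, adjusted p = 0.051, edgeR).

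Genes of IL-3 signalling were divided with TMM and mostly lower against the spike-in. Of 24, 7 rose and 11 fell with TMM (median -0.014 log2), and 1 rose and 19 fell against the spike-in (median -0.71). Over all genes on the spike-in scale, 14% rose and 63.7% fell. Csf2rb fell 1.61-fold, the kinase gene Jak2 3.08-fold and Stat5b 2.85-fold. Socs3, a feedback inhibitor of JAK kinases, was at 25.7 and 31.2 CPM at 3 h, against 5.94 and 8.16 CPM at 0 h, the largest called rise of the list at 5 CPM or more.

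Targets of p53 rose in most cases with TMM. The protein p53 is known to be activated when ribosome synthesis stops. Neither was measured here, and the cause of the rises was not tested. Of 25 targets for arrest, repair and feedback, 19 rose and 4 fell, with a median of 0.91 log2; 13 rose and 8 fell against the spike-in. Trp53inp1, a stress-induced partner of p53, was at 870.2 and 849 CPM at 3 h, against 171 and 171 CPM at 0 h. Btg2, an antiproliferative regulator of deadenylation, was at 269 and 265 CPM at 3 h, against 43.8 and 48.0 CPM at 0 h. Gtse1, a microtubule protein that restrains p53, was at 269 and 278 CPM at 3 h, against 49.1 and 52.6 CPM at 0 h. These rises of 5.03-fold, 5.82-fold and 5.38-fold were far larger than the gaps between replicates. Cdkn1a, the cell cycle inhibitor p21, rose 1.87-fold (0.91 ± 0.02 log2) and by 0.23 log2 against the spike-in. Gadd45a, a stress sensor, and Mdm4, a p53 inhibitor, fell 2.33-fold and 2.27-fold.

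Of 11 death genes under p53, 7 rose and 3 fell. Pmaip1, the BH3 protein Noxa, was at 152 and 144 CPM at 3 h, against 25.8 and 27.9 CPM at 0 h. Bbc3, the BH3 protein Puma, was at 88.4 and 94.0 CPM at 3 h, against 243 and 251 CPM at 0 h. These BH3 genes thus moved in opposite directions, 5.51-fold up and 2.70-fold down. The death receptor gene Eda2r and the nuclease gene Aen rose 4.08-fold and 3.49-fold. Over 17 genes of the BCL2 family, 7 rose and 10 fell, against 2 and 13 on the spike-in scale; the proapoptotic Bcl2l11 rose 3.28-fold and the prosurvival Bcl2 fell 3.61-fold.

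Mitotic and replication genes mainly fell, while G1 and histone genes were more divided. Over all genes tested 37.6% rose and 33.3% fell. Of 40 mitotic genes, 6 rose and 33 fell (median -0.64 log2), of 42 replication genes 8 rose and 23 fell, and of 23 G1 genes 9 rose and 13 fell. Ect2, which drives cytokinesis, fell 5.14-fold and the kinetochore gene Ndc80 4.48-fold, while securin (Pttg1) and the mitotic exit activator Cdc20 rose 2.06-fold and 1.96-fold. The clamp loader genes Rfc1 and Rfc4 fell 3.19-fold and 2.81-fold. The clamp Pcna and the flap endonuclease Fen1 rose 1.77-fold and 2.30-fold; Pcna is also a p53 target. Among G1 genes E2f8, E2f2 and Cdk6 fell 3.09-fold, 2.87-fold and 2.87-fold, and Ccne2 rose 1.63-fold with TMM but not against the spike-in (0.028 log2, adjusted p = 0.78, edgeR). Replication-dependent histone mRNAs mostly lack a poly(A) tail; of 36 tested histone genes 10 rose and 12 fell, with Hist1h1c at 2.47-fold up and the replacement linker histone H1f0 at 2.58-fold down. The other 14 were not called, and many members had few counts. The change in KO2 was below that in WT for 9 histone genes and above it for 2, and below that in KO1 for 3 and above it for 1.

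Heat-shock chaperones, a list of the cytosol that also held mitochondrial HSP60 and HSP10, rose together. Of 19 tested, 16 rose and 0 fell, 9 of them by at least 2-fold, with a median of 0.90 log2. Against the spike-in 9 rose and 5 fell. Hspa8, the constitutive HSP70, was at 3226 and 3207 CPM at 3 h, against 746 and 742 CPM at 0 h. Hsp90aa1, the inducible HSP90, was at 4132 and 4030.2 CPM at 3 h, against 1218 and 1173 CPM at 0 h. Hsph1, a nucleotide exchange factor of HSP70, was at 383 and 368 CPM at 3 h, against 72.9 and 75.6 CPM at 0 h. The 2 libraries of each time lay close together, and the rises were 4.32-fold, 3.41-fold and 5.06-fold. Dnajb1, an HSP40, rose 5.04-fold, and Hspe1, the mitochondrial HSP10, was at 365 and 349.6 CPM at 3 h, against 188 and 196 CPM at 0 h. Hspe1 and, further on, Isg15, Asns, Atf4 and Ddit3 were chosen for description after their values were seen.

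Heat-shock genes are classically driven by heat shock factor 1 through heat-shock elements, inverted repeats of GAA. The element was searched on both strands as GAA, TTC and GAA with any 2 bases between each in RefSeq promoter windows (GRCm38.p6, 250 bases before to 50 after the start). It was found in 4 of 14 heat-shock list genes with a window (28.6%), among 0.579% of all 10543 tested genes with one. Genes that rose by at least 2-fold carried it in 0.731% of cases and genes that fell by at least 2-fold in 0.311%. Dnajb1, which rose, held no match. The windows of Hsph1 and Hspe1 are shown from 200 bases before to 30 bases after the start because both carry the element and both genes rose. Capitals mark the element on either strand.
Hsph1, chr5:149636286-149636515, minus strand: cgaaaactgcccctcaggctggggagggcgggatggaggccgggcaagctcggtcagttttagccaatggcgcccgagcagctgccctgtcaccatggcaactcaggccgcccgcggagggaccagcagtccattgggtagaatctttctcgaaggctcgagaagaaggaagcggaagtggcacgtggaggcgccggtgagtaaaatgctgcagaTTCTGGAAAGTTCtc
Hspe1, chr1:55087948-55088177, plus strand: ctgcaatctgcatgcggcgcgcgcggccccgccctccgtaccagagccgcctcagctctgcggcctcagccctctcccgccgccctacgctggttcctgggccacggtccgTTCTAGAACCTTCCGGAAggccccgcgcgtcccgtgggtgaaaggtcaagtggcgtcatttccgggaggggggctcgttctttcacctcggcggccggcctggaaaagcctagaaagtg
In Hsph1 the match begins 15 bases after the start, and in Hspe1 overlapping matches begin 89 bases before it. The match describes letters only, not a bound site.

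Other folding machinery had smaller median changes. All 8 CCT chaperonin subunits, which fold actin and tubulin, rose (median 0.64 log2; Tcp1 1.74-fold), but against the spike-in 0 rose and 1 fell. Of 22 endoplasmic reticulum chaperone and stress genes, 15 rose and 6 fell. Sdf2l1 and Creld2, chaperone-type proteins of the reticulum, rose 2.78-fold and 2.57-fold. Against the spike-in 5 of the list rose and 11 fell. The stress sensors fell: Atf6 was at 22.2 and 20.3 CPM at 3 h, against 185 and 190.2 CPM at 0 h, and Ern1, the sensor IRE1, was at 108 and 107 CPM at 3 h, against 657 and 673 CPM at 0 h.

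The integrated stress response, in which ATF4 drives genes for amino acid supply, fell as a list. Of 21 genes, 2 rose and 18 fell, 12 of them by at least 2-fold, with a median of -1.58 log2. Trib3, a pseudokinase that restrains ATF4, was at 54.1 and 50.8 CPM at 3 h, against 676 and 678 CPM at 0 h. Nupr1 was at 2.26 and 2.63 CPM at 3 h, against 50.1 and 49.5 CPM at 0 h. Atf4 itself was at 125 and 128 CPM at 3 h, against 549.7 and 549 CPM at 0 h. These falls were 12.9-fold, 20.2-fold and 4.34-fold. Ddit3, the factor CHOP, fell 4.89-fold and Gpt2, an alanine transaminase, 6.73-fold. Asns, asparagine synthetase and a textbook ATF4 target, was at 170.2 and 161 CPM at 3 h, against 275 and 269 CPM at 0 h, a fall of only 1.65-fold. Ddit4, an inhibitor of mTORC1, was at 155 and 159 CPM at 3 h, against 106 and 111 CPM at 0 h, but changed by -0.14 log2 against the spike-in (adjusted p = 0.078, edgeR). Of 21 aminoacyl-tRNA synthetases, several of which are ATF4 targets, 5 rose and 16 fell; Fars2 and Yars fell 4.34-fold and 3.12-fold, and Kars rose 1.44-fold with TMM while it changed by -0.15 log2 against the spike-in.

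The ATF4 response element, a composite site of C/EBP and ATF factors, was searched as TGATGNAA on both strands. It was found in 5 of 20 list genes with a window (25%), among 2.8% of all tested genes with one. The windows of Trib3, Nupr1 and Asns are shown because all 3 carry it while their mRNAs fell by very different amounts. Capitals mark the element on either strand.
Trib3, chr2:152344031-152344260, minus strand: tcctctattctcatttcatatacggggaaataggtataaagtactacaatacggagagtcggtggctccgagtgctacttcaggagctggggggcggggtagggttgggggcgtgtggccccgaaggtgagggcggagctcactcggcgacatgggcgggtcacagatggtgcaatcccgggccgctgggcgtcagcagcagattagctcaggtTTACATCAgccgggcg
Nupr1, chr7:126625441-126625670, minus strand: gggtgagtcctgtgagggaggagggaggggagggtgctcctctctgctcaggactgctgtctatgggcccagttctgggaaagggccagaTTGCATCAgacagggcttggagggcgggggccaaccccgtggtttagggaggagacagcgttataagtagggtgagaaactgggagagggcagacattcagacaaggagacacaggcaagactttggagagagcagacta
Asns, chr6:7693180-7693409, minus strand: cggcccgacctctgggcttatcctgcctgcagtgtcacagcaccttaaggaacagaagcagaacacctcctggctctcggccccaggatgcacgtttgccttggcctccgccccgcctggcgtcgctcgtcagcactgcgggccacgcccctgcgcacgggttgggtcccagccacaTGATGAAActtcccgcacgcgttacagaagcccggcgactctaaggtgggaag
The element thus stands in promoters of list members that fell 20.2-fold and 1.65-fold alike.

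Housekeeping transcripts gained share by modest amounts. Of 82 cytosolic ribosomal protein genes, 79 rose and 0 fell (median 0.60 log2), and their summed level was 103334 and 102813 CPM at 3 h, against 69581 and 69484 CPM at 0 h. Against the spike-in the same genes had a median of -0.071 log2, with 6 higher and 23 lower. Rps27l, a p53-induced paralog of a small-subunit protein, rose 2.54-fold. Of the 76 nuclear-encoded respiratory chain genes, 73 rose and 1 fell with TMM (median 0.68), against 18 and 25 on the spike-in scale. Among subunits of complex I, Ndufb2 rose 4.80-fold and Ndufs1 fell 1.14-fold. The 13 mRNAs of the mitochondrial genome had a median of 0.70 log2 with 9 rising and 0 falling, mt-Nd2 by 1.81-fold and mt-Co1 by 1.73-fold; mt-Co1 did not pass the test against the spike-in (0.12 log2, adjusted p = 0.14, edgeR). Proteasome subunits rose in 29 of 32 cases and fell in 2, among them Psmc2 (1.64-fold). Against the spike-in 0 rose and 18 fell, and Psmd13, 1.77-fold higher with TMM, did not pass the test (0.15 log2, adjusted p = 0.076, edgeR).

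Gene products that make ribosomes and translate mRNA were more divided. Ribosome assembly factors rose in 47 and fell in 24 of 79 cases (median 0.21 log2), and against the spike-in 5 rose and 53 fell. Nop10 and Nip7 rose 2.30-fold and 2.04-fold, and Ddx10 and Nol10 fell 3.32-fold and 2.52-fold. Of 16 genes of the RNA polymerase I machinery, 7 rose and 6 fell, shares near those of all genes, from Polr1e at 2.46-fold up to Taf1b at 2.67-fold down. Mitochondrial ribosomal proteins rose in 48 and fell in 14 of 77 cases, Mrps17 rising 2.60-fold and Mrpl1 falling 2.46-fold. Translation factors rose in 31 and fell in 6 of 42 cases, with the helicase gene Eif4a1 at 1.87-fold up and Eif3a at 1.5025-fold down. Against the spike-in the counts that rose and fell were 1 and 14 for the polymerase I genes and 1 and 53 for mitochondrial ribosomal proteins. They were 2 and 28 for translation factors. Falls prevailed on that scale over all genes too, of which 14% rose and 63.7% fell.

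**Figure D2:**
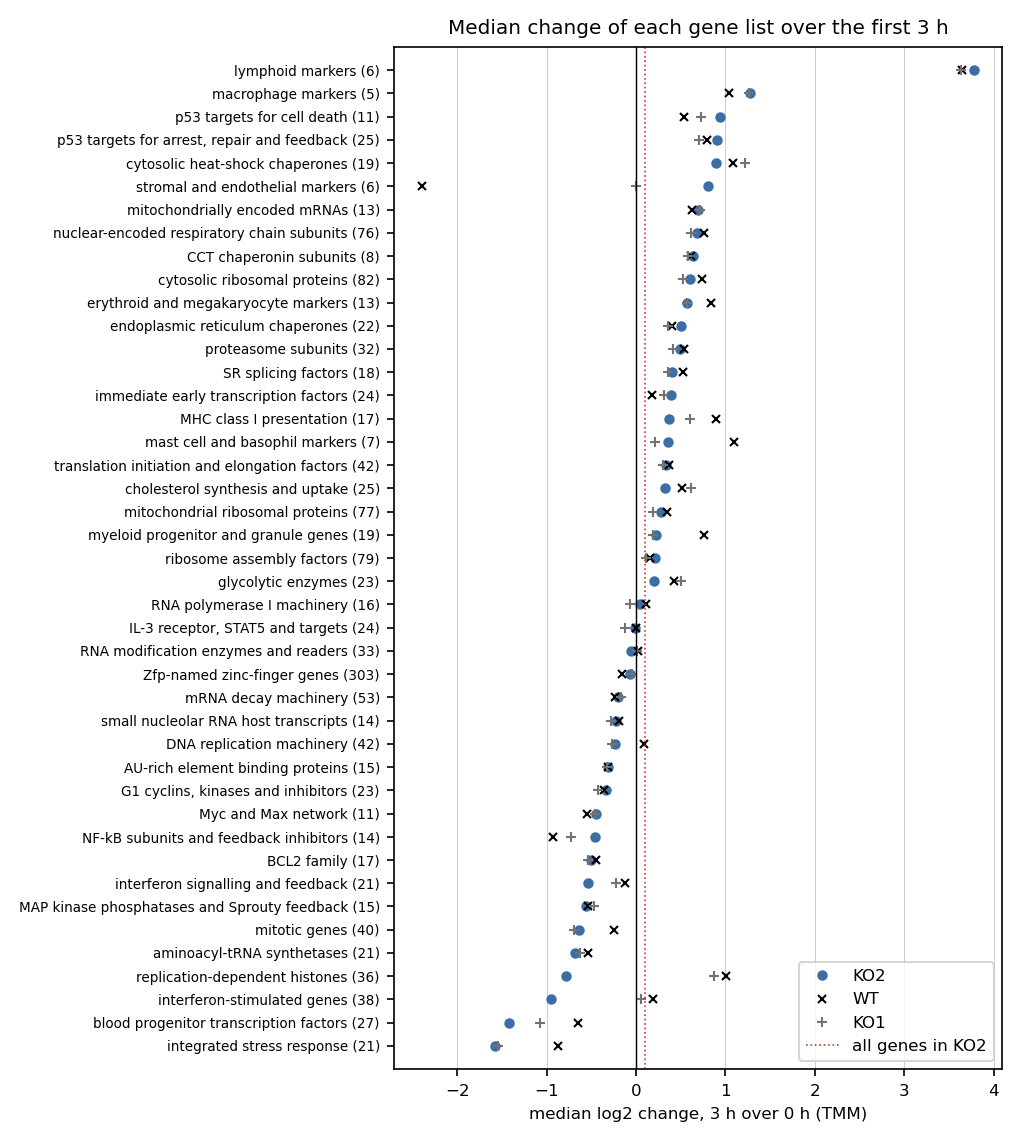
Each row is 1 of 43 gene lists with the number of members tested in brackets, and each mark is the median log2 change over the first 3 h (x axis, TMM scale) in KO2 (blue), WT (x) or KO1 (+), with the median of all genes in KO2 dotted. In KO2 the medians run from -1.58 for the integrated stress response to 3.78 for 6 lymphoid markers of very low level, and the interferon-stimulated genes lie at -0.95 in KO2, 0.19 in WT and 0.055 in KO1. The KO2 medians of the ribosomal protein, CCT, proteasome and ribosome assembly lists are above 0 here and below 0 on the spike-in scale.

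Genes acting on RNA moved in both directions. Of 53 mRNA decay genes, 20 rose and 27 fell with TMM, and 3 rose and 43 fell against the spike-in. Tob1, an adaptor that recruits the CCR4-NOT deadenylase, was at 342 and 355 CPM at 3 h, against 54.7 and 57.3 CPM at 0 h. Smg6, the endonuclease of nonsense-mediated decay, was at 12.8 and 11.7 CPM at 3 h, against 67.9 and 66.0 CPM at 0 h. Cnot6l, a catalytic deadenylase subunit, was at 42.7 and 49.1 CPM at 3 h, against 173 and 165 CPM at 0 h. The adaptor thus rose 6.22-fold while these enzymes fell 5.47-fold and 3.67-fold. SR splicing factors rose in 12 and fell in 5 of 18 cases; Srsf6 and Tra2a rose 2.82-fold and 2.27-fold, and the SR protein kinase gene Srpk2 fell 3.29-fold, while against the spike-in 6 rose and 11 fell. RNA modification enzymes and readers, Nat10's own class, changed by small amounts: 12 of 33 rose and 14 fell, 1 of them by at least 2-fold, the m6A reader Ythdc2 (2.47-fold). Against the spike-in 0 of the 33 rose and 26 fell. Ybx1, a reader of methylated cytidine, rose 1.57-fold with TMM and changed by -0.023 log2 against the spike-in. Of 14 small nucleolar RNA host transcripts, 4 rose and 8 fell, Snhg20 rising 3.19-fold and Zfas1 and Snhg5 falling 3.24-fold and 2.25-fold.

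Metabolic lists had no single direction with TMM. Glycolytic genes rose in 13 and fell in 5 of 23 cases. The lactate transporter Slc16a1 and the enzyme Tpi1 rose 2.06-fold and 1.89-fold, and the regulatory steps Pfkfb3 and Hk2 fell 3.25-fold and 2.44-fold. Cholesterol genes rose in 16 and fell in 6 of 25 cases; Insig1, which retains the sterol sensor in the reticulum, rose 2.88-fold and squalene synthase (Fdft1) fell 2.72-fold. Against the spike-in, 4 and 14 glycolytic genes and 6 and 14 cholesterol genes rose and fell. Of 303 Zfp-named zinc-finger genes, 100 rose and 110 fell (median -0.07 log2), near the shares of all genes (37.6% and 33.3%). They ran from Zfp667 at 5.42-fold up to Zfp945 and Zfp609 at 6.32-fold and 6.07-fold down. Against the spike-in 31 rose and 203 fell, beside 14% and 63.7% of all genes. Cell type markers rose more often than they fell with TMM, except in the stromal and endothelial list. Here too the count filter let in markers nearly silent at 0 h, which could hardly fall. Against the spike-in the lists were divided. With TMM 3 of 5 macrophage markers tested rose and 1 fell, with Cd68 at 67.4 and 69.3 CPM at 3 h against 25.9 and 25.9 CPM at 0 h. Of 13 erythroid and megakaryocyte markers 9 rose and 0 fell, of 19 myeloid genes 8 rose and 2 fell, of 7 mast cell markers 2 rose and 1 fell, and of 6 stromal and endothelial markers 1 rose (Vim, 3.71-fold) and 1 fell. Against the spike-in the numbers that rose and fell were 3 and 1 for the macrophage markers, 3 and 2 for the erythroid and megakaryocyte markers, 3 and 7 for the myeloid genes, 0 and 1 for the mast cell markers and 1 and 1 for the stromal and endothelial markers.

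Interferon-stimulated genes, the antiviral effectors of the interferon response, mostly fell in KO2. Of 38 tested, 7 rose and 28 fell, 18 of them by at least 2-fold, with a median of -0.95 log2. Ifit1, which binds foreign capped RNA, was at 16.2 and 15.8 CPM in KO2 at 3 h, against 73.6 and 70.2 CPM in KO2 at 0 h. WT had 2.19 and 1.22 CPM at 3 h and 1.66 and 1.18 CPM at 0 h, and KO1 had 1.49 and 1.36 CPM at 3 h and 2.65 and 2.89 CPM at 0 h. The libraries of KO2 were the high ones at both times, and the fall in KO2 took place from a level that neither WT nor KO1 reached. Oasl2, an oligoadenylate synthetase-like protein, had the same shape, at 31.2 and 30.2 CPM in KO2 at 3 h and 141 and 150.5 CPM at 0 h, against 2.46 and 3.40 CPM in WT at 3 h and 2.72 and 2.84 CPM in WT at 0 h. Isg15, a ubiquitin-like modifier, was at 44.7 and 43.6 CPM in KO2 at 3 h and 97.5 and 102 CPM at 0 h, against 8.55 and 7.05 CPM in WT at 3 h and 6.87 and 6.21 CPM in WT at 0 h. Not every member fell. Mx1, a dynamin-like GTPase, was at 107 and 116 CPM in KO2 at 3 h, against 45.5 and 47.7 CPM at 0 h, and Bst2, the tether of budding virus, rose 1.5968-fold with TMM and changed by -0.00038 log2 against the spike-in. Dhx58, an RNA sensor, was at 38.2 and 39.1 CPM at 3 h, against 67.4 and 65.7 CPM at 0 h.

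The interferon-stimulated response element was searched on both strands as GAAA, any 2 bases and GAAA. It was found in 16 of 26 list genes with a window (61.5%), among 3.72% of all tested genes with one. Genes that rose by at least 2-fold carried it in 2.66% of cases and genes that fell by at least 2-fold in 4.72%. Oasl2, which fell, held no match, and Bst2, which rose with TMM, held one. The windows of Ifit1 and Isg15 are shown because both genes fell and both carry the element. Capitals mark it on either strand.
Ifit1, chr19:34640689-34640918, plus strand: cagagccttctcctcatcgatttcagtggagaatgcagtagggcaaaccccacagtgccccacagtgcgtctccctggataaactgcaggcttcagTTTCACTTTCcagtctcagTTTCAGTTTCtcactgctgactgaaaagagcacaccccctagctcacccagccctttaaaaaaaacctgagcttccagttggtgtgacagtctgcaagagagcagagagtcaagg
Isg15, chr4:156200789-156201018, minus strand: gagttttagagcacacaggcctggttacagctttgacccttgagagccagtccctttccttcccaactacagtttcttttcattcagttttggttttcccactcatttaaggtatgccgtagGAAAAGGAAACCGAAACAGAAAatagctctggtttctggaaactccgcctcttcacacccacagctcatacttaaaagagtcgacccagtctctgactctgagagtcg
Ifit1 holds 2 separate matches and Isg15 a run of 3 overlapping matches.

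The regulators around this response also fell in most cases. Of 21 interferon signalling and feedback genes, 5 rose and 15 fell. Usp18, which removes ISG15 and blocks the receptor, was at 74.0 and 71.5 CPM at 3 h, against 217 and 216 CPM at 0 h. Its 3 h libraries lay below both 0 h libraries, a 2.98-fold fall. Irf1 rose 2.21-fold and Irf2, its antagonist, fell 3.17-fold. Genes of MHC class I presentation, partly induced by interferon, rose in 12 and fell in 3 of 17 cases, with Pdia3 at 1.98-fold and B2m at 1.68-fold up, the second not past the test against the spike-in (0.069 log2, adjusted p = 0.35, edgeR), and the peptide transporter gene Tap2 1.31-fold down. Against the spike-in 1 of the list rose and 11 fell.

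Falls were more frequent in long genes. The median change was 0.51 log2 in 4250 genes spanning under 5 kb, 0.38 in 5106 genes of 5 to 20 kb and -0.035 in 3757 genes of 20 to 50 kb. It was -0.68 in 1755 genes of 50 to 100 kb, -1.14 in 902 genes of 100 to 200 kb and -1.32 in 397 genes of 200 kb or more. The share of genes that fell by at least 2-fold was 55.2% at 200 kb or more and 10.9% under 5 kb, beside 15.2% over all genes. The order of the medians was the same in WT and in KO1, and the spike-in lowered each median. Grouping by exon number or summed exon length gave a smaller spread of medians: 0.44 log2 for genes with 1 exon block and -0.64 for over 20, and 0.51 for the genes with the least exon sequence and -0.65 for those with the most. These groupings share genes, and genes are not replicates, so no test was made. Pde4d, 1504 kb long, Fars2, 609 kb long, and Hdac4, 267 kb long, were among the long genes that fell. Tspoap1 (25.4 kb), Hspa8 (9.10 kb) and Tob1 (4.04 kb) spanned less and rose, and so short were also Il6 (6.87 kb), Trib3 (6.61 kb) and Myc (4.98 kb), all of which fell.

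**Figure D3:**
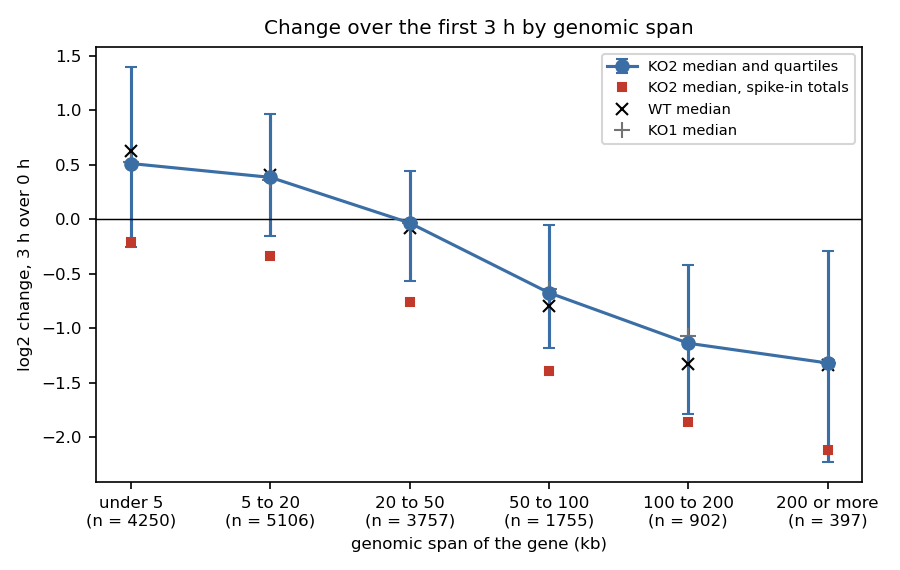
Blue points are the median log2 change in KO2 (3 h over 0 h, y axis) of tested genes grouped by genomic span (x axis, kb), with bars from the lower to the upper quartile over genes; squares are the KO2 medians on the spike-in scale, x marks WT and + marks KO1 on the TMM scale. The KO2 median goes down from 0.51 under 5 kb to -1.32 at 200 kb or more.

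The first 3 h in KO2 were then set against the same window in WT, with no library shared. WT had 11666 called genes. Genes called in both windows with the same direction numbered 9763, which is 85.2% of the KO2 calls and 83.7% of the WT calls, and 210 were called in opposite directions. Over 10060 genes with at least 5 CPM in KO2 the log2 changes correlated across genes at r = 0.947, a description over genes that share the same libraries. The window differed between KO2 and WT for 3986 genes (24.7%; edgeR's quasi-likelihood test of the difference of the 2 changes, Benjamini-Hochberg adjustment), 2146 with a higher change in KO2 (13.3%) and 1840 with a lower (11.4%). By gene totals alone, without TMM, these were 3045 and 1299. At least 2-fold differences were called for 189 (1.17%) and 183 genes (1.13%). Over the lists, the log2 change was lower in KO2 than in WT for 28 of 38 interferon-stimulated genes and higher for 0. The same counts were 29 and 0 of 42 for the replication machinery, 25 and 0 of 40 for mitotic genes, 70 and 1 of 82 for ribosomal protein genes and 14 and 0 of 17 for MHC class I presentation. Other lists went the other way, with lower and higher counts of 5 and 31 of 79 for ribosome assembly factors, 0 and 10 of 25 for p53 targets of arrest and repair, and 0 and 9 of 19 for heat-shock chaperones. The median of the heat-shock list was nevertheless lower in KO2, at 0.90 log2, than in WT (1.08) or KO1 (1.22).

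Of genes with at least 5 CPM in either genotype, the change lay furthest below WT for Cebpb, a bZIP factor of myeloid and stress genes (ENSMUSG00000056501, chromosome 2, 167530835 to 167532338 in GRCm39). It was at 10.9 and 9.59 CPM in KO2 at 3 h and 31.9 and 29.3 CPM in KO2 at 0 h, against 42.1 and 41.4 CPM in WT at 3 h and 16.9 and 14.2 CPM in WT at 0 h. Cebpb thus fell in KO2 and rose in WT, a difference of -3.001 ± 0.16 log2 (adjusted p = 6.7e-32, edgeR). Against KO1 the difference was -1.04 log2, so Cebpb had a fitted fall in KO1 too, smaller than in KO2. Ifit1 and Oasl2 had differences from WT of -2.42 ± 0.34 and -2.33 ± 0.27, and Gbp9, an interferon-induced GTPase, of -2.19 ± 0.55. Tmem238 was at 14.4 and 11.9 CPM in KO2 at 3 h and 15.3 and 15.5 CPM at 0 h, against 24.7 and 25.2 CPM in WT at 3 h and 7.04 and 6.56 CPM at 0 h. It changed by -0.23 ± 0.12 log2 in KO2 (adjusted p = 0.083, edgeR) and by 1.87 ± 0.12 in WT, and the difference was -2.10 ± 0.17.

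In the other direction, Slc39a10, a zinc importer, was at 49.3 and 44.4 CPM in KO2 at 3 h and 9.70 and 7.23 CPM at 0 h, against 25.3 and 24.9 CPM in WT at 3 h and 17.2 and 16.965 CPM at 0 h. Serpinb1a, an inhibitor of neutrophil proteases, was at 80.7 and 71.0 CPM in KO2 at 3 h and 6.38 and 6.29 CPM at 0 h, against 66.9 and 70.2 CPM in WT at 3 h and 20.008 and 19.98 CPM at 0 h. Both started lower in KO2 and rose more, by 1.91 ± 0.14 and 1.80 ± 0.13 log2 beyond WT. Syce2, a protein of the synaptonemal complex, was at 5.28 and 5.27 CPM in KO2 at 3 h and 0.188 and 0.187 CPM at 0 h, against 9.51 and 9.04 CPM in WT at 3 h and 2.78 and 3.43 CPM at 0 h. Its difference of 3.19 ± 0.50 log2 rests on very few counts in KO2 at 0 h. Fxyd4 and Omg, also low, differed by 1.96 ± 0.55 and 1.67 ± 0.65.

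**Figure D4:**
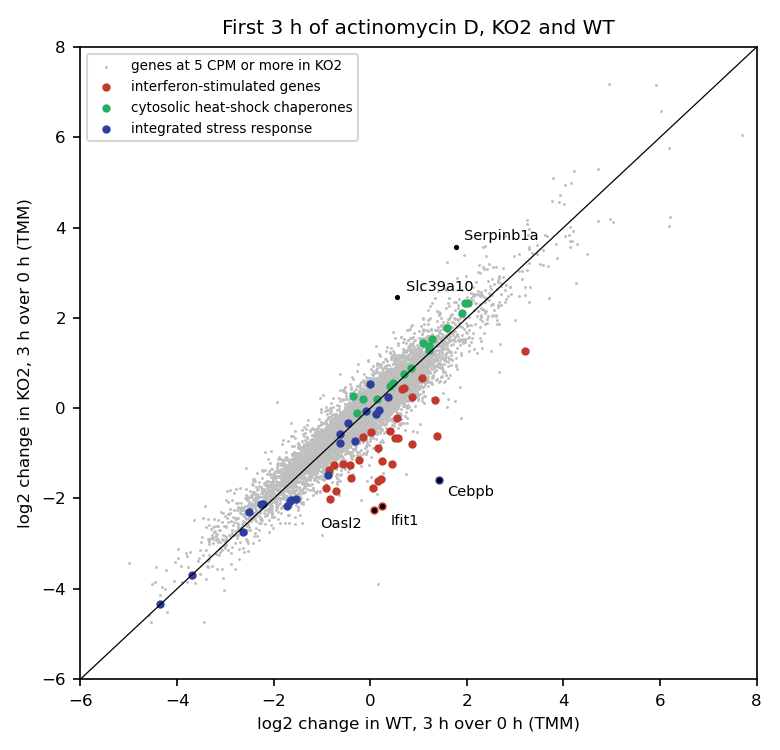
Each point is a gene averaging 5 CPM or more over the 4 KO2 libraries, placed by its log2 change over the first 3 h in WT (x axis) and KO2 (y axis), both on the TMM scale, with the line of equal change. By the test of the difference, 28 of 38 interferon-stimulated genes (red) were below WT and 0 above. For heat-shock chaperones (green) 0 and 9 of 19 were below and above, though the list median was 0.90 in KO2 and 1.08 in WT. For integrated stress response genes (blue) 10 and 3 of 21 were below and above. Cebpb, a member of the stress list, is at -1.58 in KO2 and 1.42 in WT.

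Against KO1 fewer genes differed in the window. KO1 had 11522 called genes, of which 10209 were called in KO2 with the same direction (89.1% of the KO2 calls and 88.6% of the KO1 calls) and 52 with the opposite one. The difference of the windows was called for 949 genes (5.87%), 537 higher in KO2 (3.32%) and 412 lower (2.55%), with 24 (0.148%) and 61 (0.377%) at least 2-fold. Scaled by spike-in totals, 29 genes were higher and 9288 lower, with a median difference of -0.50 log2, beside spike-in shares that moved 1.56-fold in KO2 and 1.09-fold in KO1. Of the interferon-stimulated genes, 24 of 38 were lower in the change of KO2 and 0 higher, beside 35 of 82 ribosomal protein genes and 24 of 79 ribosome assembly factors that were higher. Replication and mitotic genes changed in KO1 much as in KO2. Their medians were -0.24 and -0.64 log2 in KO2, -0.26 and -0.70 in KO1, and 0.08 and -0.25 in WT. KO2 was above and below KO1 for 1 and 0 replication genes and for 1 and 1 mitotic genes. Lars2, the mitochondrial leucyl-tRNA synthetase, was at 121 and 126 CPM in KO2 at 3 h and 377 and 375 CPM at 0 h, against 361 and 372 CPM in KO1 at 3 h and 109 and 109 CPM at 0 h. It moved in opposite directions in KO2 and KO1, a difference of -3.36 ± 0.049 log2 (adjusted p = 7.6e-81, edgeR), and WT had 131 and 136 CPM at 3 h and 142 and 137 CPM at 0 h. Dhx58, Tgtp2 and Trim30d, 3 genes induced by interferon, had differences of -1.57 ± 0.15, -1.41 ± 0.16 and -1.60 ± 0.45, and Oasl2 of -1.52 ± 0.33. Above KO1 were Syce2 (3.06 ± 0.52), Gpr171 (1.36 ± 0.40), Cdon (1.25 ± 0.24), Il23a (1.13 ± 0.29) and Ifi27l2a (1.07 ± 0.29). Il23a fell in both, and in KO1 it had 1.94 and 2.54 CPM at 3 h and 76.2 and 77.3 CPM at 0 h.

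The 6 h and 9 h libraries of KO2 give the later levels. Trib3 had a mean of 79.3 CPM at 6 h and 109 CPM at 9 h, and Il6 3.15 and 5.62 CPM, so both stayed far below their 0 h levels. Myc was lower still, at 21.018 CPM at 6 h and 16.6 CPM at 9 h. Among genes that rose, Hspa8 was at 2031 CPM at 6 h and 722 CPM at 9 h, back near its 0 h level, and Actg1 at 841 and 457 CPM. Tspoap1 was at 263 CPM at 6 h and 153 CPM at 9 h. Trp53inp1 was higher again, at 1651 CPM at 6 h and 2166 CPM at 9 h, as was Pmaip1, at 288 and 413 CPM. Ifit1 was at 21.7 CPM at 6 h and 38.7 CPM at 9 h, and Oasl2 at 36.0 and 67.8 CPM, both between their 3 h and 0 h levels. Nat10 was at 57.2 CPM at 6 h and 47.3 CPM at 9 h. These later levels are shares of a pool that itself changed, with spike-in counts at 779.5 and 794.3 CPM in the KO2 libraries at 6 h.

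**Figure D5:**
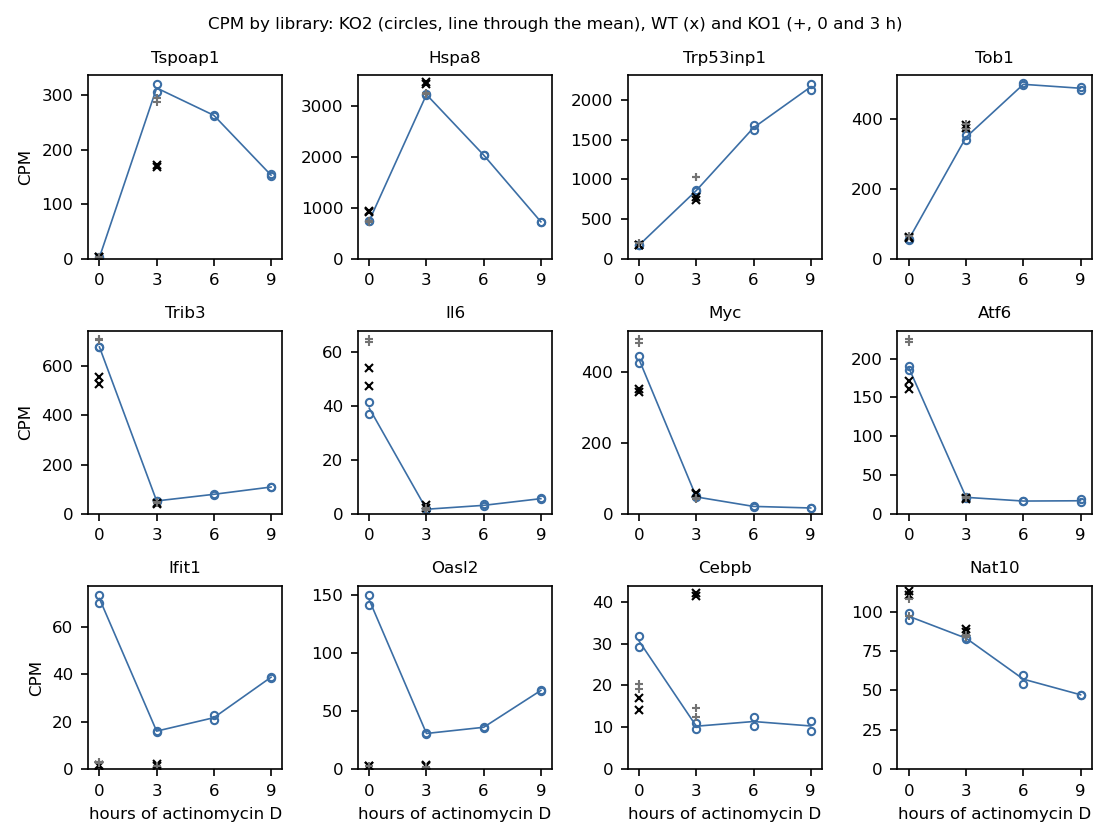
Each panel is 1 gene, with CPM (y axis) against hours of actinomycin D (x axis); circles are the 2 KO2 libraries of each time with a line through their mean, x marks WT and + marks KO1 at 0 and 3 h. Tspoap1 and Hspa8 peak at 3 h in KO2, Trp53inp1 rises throughout, Trib3, Il6, Myc and Atf6 are lower by 3 h, and Ifit1 and Oasl2 are highest in KO2 at 0 h.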

How the data were processed

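Polyadenylated RNA of 24 libraries was measured as raw read counts per gene, made by the authors with featureCounts 1.6.3 on Ensembl release 105 (GRCm39) plus ERCC sequences, without strand and with both mates required, per the file headers. STAR and DESeq2 are named without versions in the submitters' processing notes. ERCC rows were left out of gene library sizes and used only for the spike-in scale. Groups came from the library titles. edgeR 4.0.16 (R 4.3.3) fitted 12 groups by its quasi-likelihood test after a minimum-count filter of 10 and TMM scaling, with Benjamini-Hochberg adjustment over 16167 genes, and each SE is the log2 change over the square root of F. The contrasts were KO2 at 3 h minus 0 h, and that difference minus the same in WT or KO1. The script was tested on simulated data. Spike-in scales were fitted to the groups compared alone. Alternatives were other scalings, filters, DESeq2 1.42.0, leaving out libraries and a replicate block.

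Genes were named by rule: Nat10, the 12 largest called rises and falls at 5 CPM or more without overlap of the libraries and with no predicted gene, the 6 most abundant at least 2-fold each way, up to 3 members each way of each list, and the 5 largest differences each way from WT and KO1; some genes that this rule names are not reported here. Gene lists and members were chosen with earlier results of these data known. Symbols came from a GENCODE name table, and promoter windows from RefSeq on GRCm38.p6, kept apart from GRCm39 coordinates.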

Additional observations from a re-analysis of the deposited data

Results flagged for a closer look

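The change over the first 3 h differed between KO2 and another genotype by at least 2-fold, by the edgeR test of the difference itself, for the named genes that follow, each with the log2 change in KO2 minus that in the other genotype. KO2 lay below WT for Cebpb (-3.001), Ifit1 (-2.42), Oasl2 (-2.33), Gbp9 (-2.19), Tmem238 (-2.10), Mx1 (-1.96), Usp18 (-1.79), Tgtp2 (-1.70), Dhx58 (-1.65), Lars2 (-1.54), E2f2 (-1.53), Isg15 (-1.43) and Oasl1 (-1.18). It lay above WT for Syce2 (3.19), Fxyd4 (1.96), Slc39a10 (1.91), Serpinb1a (1.80), Omg (1.67), Tspoap1 (1.25) and Zfp667 (1.09). Against KO1, KO2 lay below for Lars2 (-3.36), Trim30d (-1.60), Dhx58 (-1.57), Oasl2 (-1.52), Tgtp2 (-1.41), Usp18 (-1.35), Oasl1 (-1.22), Ifit1 (-1.21), Isg15 (-1.05) and Cebpb (-1.04). It lay above KO1 for Syce2 (3.06), Gpr171 (1.36), Cdon (1.25), Il23a (1.13) and Ifi27l2a (1.07). Oasl2, Ifit1, Oasl1, Usp18, Isg15, Dhx58 and Tgtp2, all interferon-stimulated or interferon-induced genes, appear below both. Lars2 and Cebpb are also below both, and Syce2 is above both.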

How the results depend on the processing

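Keeping genes that average 5 CPM or more gave 1093 rises and 1628 falls of at least 2-fold in KO2, 62 and 70 such differences above and below WT, and 4 and 37 above and below KO1. On spike-in totals 1913 genes rose and 8696 fell, 1079 and 4883 of them by at least 2-fold, and the spike-in median of ratios gave 1817 and 8903, with 1056 and 5048. Against KO1, spike-in totals called 9317 genes, 29 higher and 9288 lower, with 598 lower by at least 2-fold, and DESeq2 called 10 at least 2-fold higher. The difference between the medians of the longest and shortest genes, -1.83 log2 by span, was -2.24 at 5 CPM or more, -1.16 by summed exon length and -1.08 by exon number. On spike-in totals, which moved the median gene by -0.68 log2, 5 named genes that rose with TMM had a value below 0: Rela (-0.50 log2) and Kars (-0.15) passed the test, and Ddit4 (-0.14), Bst2 (-0.00038) and Ybx1 (-0.023) did not. By the spike-in median of ratios the values below 0 were Rela (-0.54), Ddit4 (-0.18), Kars (-0.19), Bst2 (-0.037), Ybx1 (-0.060) and Ccne2 (-0.0086). The cause was not tested.

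Leaving out 1 library in turn gave 10655 to 10750 called genes in KO2, 5607 to 5711 higher and 5003 to 5061 lower, with 2510 to 2582 and 2357 to 2378 by at least 2-fold, and Nat10 at -0.25 to -0.19. It gave 3308 to 3454 differences from WT, 1736 to 1834 above and 1545 to 1620 below, with 154 to 174 and 156 to 187 by at least 2-fold. For KO1 it gave 667 to 776 differences, 385 to 450 above and 272 to 326 below, with 14 to 21 and 43 to 58 by at least 2-fold. A group left with 1 library was assumed to vary like the others. Gpr171, not called in KO2, ranged from -0.66 to 0.26. Differences from WT or KO1 that lost the call without 1 library were those of Fxyd4 (1.77 without KO2 0 h replicate 1), Omg (1.03 to 1.53 without any of 4 libraries), Gpr171, Il23a, Ifi27l2a, Trim30d and, against KO1, Oasl2 (-1.26 without KO1 3 h replicate 1). Omg also lost it without a filter, with only the compared groups, and with DESeq2. Same-numbered libraries correlated at -0.018 to 0.048 after group means were removed. Such low values cannot exclude a shared culture or day of small effect, so whether the numbers pair the samples stays unknown. With the replicate number as a block 11468 genes were called in KO2, 4063 differed from WT and 1008 from KO1. Depth limits genes with few counts at 1 time, whose fitted fold depends on the prior count.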
